A study of Mus musculus with 6 samples.

Results

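The 10 genes described here encode inhibitors of cyclin-dependent kinases and well-known targets of the transcription factor p53: Cdkn1a, Cdkn1b and Cdkn1c of the Cip/Kip family, Cdkn2a, Cdkn2b, Cdkn2c and Cdkn2d of the INK4 family, and the p53 targets Ccng1, Mdm2 and Trp53inp1. They were taken by gene symbol, with no threshold on their values, from 18193 genes with a named probe set. The choice was made with earlier results of these data known. All 10 were measured, by 17 of the 45037 probe sets tested. RNA came from E14Tg2a cells, a mouse embryonic stem cell line. All 3 groups were kept in N2B27, a medium without serum, to which 20 ng/ml BMP4 and 1000 U/ml LIF had been added. One group was given activin at 10 ng/ml for 2 h, one was given SB431542 at 5 µM for 24 h, and the control was untreated, with 2 arrays in each group. Activin signals through the type I receptors and Smad proteins that Nodal also uses, and SB431542 inhibits the kinase of those receptors. The treatments differed in length, no vehicle is named for the control, and all cells were of a single line. The comparisons ask how the transcripts differ when this pathway is stimulated or blocked.

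Cip/Kip inhibitors bind complexes of cyclins with several kinases, whereas INK4 inhibitors bind Cdk4 and Cdk6 and keep D-type cyclins from them. Both slow entry into S phase by leaving the retinoblastoma protein unphosphorylated. p53 activates Cdkn1a, Ccng1, Mdm2 and Trp53inp1 after DNA damage, and Mdm2 in turn marks p53 for degradation. In epithelial cells TGF-beta raises Cdkn2b and Cdkn1a through Smad proteins, and Myc represses both genes. Mouse embryonic stem cells divide fast, with a short G1 phase and low levels of most of these inhibitors.

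Promoter sequences were read for the members because p53 and Smad proteins are known regulators of some of them. RefSeq (build GRCm38.p6) gave 11 windows of 250 bases upstream of a transcription start for 8 of the 10 members, without Cdkn1c and Trp53inp1. The windows shown hold a match to the p53 half-site, printed in capitals, or, for Cdkn2b, to CAGAC, which contains the core that Smad proteins recognise. CAGAC or its reverse complement GTCTG is not particular to Cdkn2b. It also stands, left in lower case, in the windows shown for Cdkn1a (1 match) and Ccng1 (3 matches). Cdkn1a has a pair of annotated starts, and the window of its upstream start is shown, chr17:29090729-29090978 on the plus strand. The others are Ccng1 at chr11:40755287-40755536, Mdm2 at chr10:117710759-117711008 and Cdkn2b at chr4:89311033-89311282, all on the minus strand and printed 5′ to 3′ along the gene.
Cdkn1a: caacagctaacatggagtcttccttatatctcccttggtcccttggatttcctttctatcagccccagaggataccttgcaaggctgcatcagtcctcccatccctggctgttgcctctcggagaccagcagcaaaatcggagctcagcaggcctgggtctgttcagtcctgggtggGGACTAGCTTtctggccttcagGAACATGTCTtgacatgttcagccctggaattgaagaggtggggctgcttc
Ccng1: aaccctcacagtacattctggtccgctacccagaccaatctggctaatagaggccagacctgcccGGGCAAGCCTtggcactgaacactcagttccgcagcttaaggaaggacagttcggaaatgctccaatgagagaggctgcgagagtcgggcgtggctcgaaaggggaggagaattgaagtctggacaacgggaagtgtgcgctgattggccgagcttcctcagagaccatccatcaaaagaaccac
Mdm2: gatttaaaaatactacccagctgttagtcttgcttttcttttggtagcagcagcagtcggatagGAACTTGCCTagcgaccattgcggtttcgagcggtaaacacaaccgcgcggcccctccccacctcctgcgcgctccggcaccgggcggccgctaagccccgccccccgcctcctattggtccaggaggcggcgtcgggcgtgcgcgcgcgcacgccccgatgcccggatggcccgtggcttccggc
Cdkn2b: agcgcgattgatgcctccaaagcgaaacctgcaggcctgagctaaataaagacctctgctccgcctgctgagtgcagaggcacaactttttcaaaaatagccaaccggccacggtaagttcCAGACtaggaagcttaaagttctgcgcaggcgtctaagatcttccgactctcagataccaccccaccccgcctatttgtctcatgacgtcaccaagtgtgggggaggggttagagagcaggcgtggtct

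The half-sites in the Cdkn1a window, GGACTAGCTT and GAACATGTCT, begin 73 and 51 bases before the start. The Ccng1 match, GGGCAAGCCT, begins 185 bases and the Mdm2 match, GAACTTGCCT, 186 bases before the start. Cdkn2d also has one, GGGCTTGCCT, 102 bases before its start. Of the member windows, 4 of 11 (36.4%) held a half-site, against 7.13% of 32851 RefSeq windows of the same length. CAGAC or its reverse complement GTCTG stood in 6 of 11 member windows (54.5%), against 42.2% of all windows, and in the Cdkn2b window it begins 129 bases before the start. GGGCGG or its reverse complement CCGCCC, the core bound by Sp1, also stood in 6 of 11 (54.5%), against 32.7% of all windows. All motifs were searched on both strands, the half-site reads the same on either, and a match is a stretch of letters, not a measured binding site.

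Values are intensities on a linear scale as deposited, and differences are on the log2 scale. Of the 17 member probe sets, 14 lay on every array above 34, the highest intensity among 27 control probe sets for Bacillus transcripts. In 5 genes more than 1 probe set was read, and the one with the highest mean then stood for the gene. Known responses of the pathway were read first: Lefty2, a Nodal antagonist that the pathway induces, had intensities of 1348 and 1253 in activin cells, 14 and 16 in SB431542 cells and 497 and 493 in control cells. Lefty1, its neighbouring paralogue, had 4089 and 4671 in activin cells, 48 and 26 in SB431542 cells and 1756 and 1524 in control cells. The Lefty2 values in SB431542 cells lay under the highest Bacillus value of 34, as did the Lefty1 value of 26 on SB431542 replicate 2. The array medians were 38 and 49 for activin, 43 and 41 for SB431542 and 46 and 37 for control, so arrays within a group differed as much as groups did.

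Defining markers of the line, Pou5f1 and Nanog, lay between 4082 and 6087 on all 6 arrays, and cell type markers moved with SB431542. The summed intensity of 8 embryonic stem cell markers was 52776 and 52020 in activin cells, 44038 and 45168 in SB431542 cells and 52143 and 51058 in control cells. The sum of 11 trophectoderm markers was 11497 and 11216 in activin cells, 18407 and 18183 in SB431542 cells and 13722 and 11939 in control cells, with 1 marker, Elf5, at or under the highest Bacillus value. Krt8 and Krt18 made up most of this sum on every array. Eomes went the other way, with 50 and 44 in SB431542 cells and 229 and 239 in control cells. Cdx2 overlapped, with 207 and 170 in SB431542 cells and 219 and 186 in control cells. The sum of 8 fibroblast markers was 3986 and 3821 in activin cells, 2648 and 2849 in SB431542 cells and 4158 and 4079 in control cells, again with 1, Col3a1, at that level. Most of it was Vim, at 3304 and 3073 in activin, 2228 and 2400 in SB431542 and 3492 and 3416 in control cells. The next brightest, Cdh2, reached 320, and the others reached at most 141 on any array. With the setting called the intensity trend below, 8 of 11 trophectoderm markers were higher and 1 was lower in SB431542 than in control. Of embryonic stem cell markers 5 of 8, and of fibroblast markers 3 of 8, were lower. Of all brightest probe sets 4.25% were higher and 2.23% lower, and 9.06% and 4.02% of those with a mean above log2 8. Sums of extraembryonic endoderm markers (4 of 8 at that level) lay between 385 and 532, and those of neuroectoderm markers (3 of 6) between 615 and 758, over all 6 arrays. The part of these cell types in the results that follow was not tested.

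Among the Cip/Kip genes, Cdkn1a was lower in SB431542 cells, and Cdkn1b and Cdkn1c did not pass the test in any comparison. Cdkn1a (probe set 1424638_at), the inhibitor that p53 induces to arrest the cell cycle, had intensities of 726 and 773 in activin cells, 419 and 470 in SB431542 cells and 876 and 774 in control cells. Both SB431542 arrays lay below the other 4, while the activin values lay just below both control values. On the log2 scale the means were 9.55 ± 0.06 for activin, 8.79 ± 0.12 for SB431542 and 9.69 ± 0.13 for control (SD, n = 2 each). Control exceeded SB431542 1.86-fold, a log2 difference of −0.89 with an SE of 0.14. That did not pass limma's default test (adjusted p = 0.179 over all probe sets) and passed when limma let the prior spread follow intensity, called the intensity trend here (adjusted p = 1.15e-06, 95% interval −1.13 to −0.66). With the trend it passed when any 1 of the 6 arrays was left out, with adjusted p between 1.83e-07 and 5.68e-05. In RNA from a whole culture, fewer cells that express a gene and less RNA per cell cannot be told apart.

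Cdkn1a after 2 h of activin was close to the control, with a log2 difference of −0.14 (adjusted p = 0.914 by default and 0.890 with the trend, 95% interval −0.37 to 0.10). Set directly against SB431542, activin cells had 1.69-fold more Cdkn1a signal, a log2 difference of 0.76 (adjusted p = 0.279 by default, 3.72e-05 with the trend). With each array shifted to 1 median this difference was 0.72 and no longer passed (adjusted p = 0.0673 with the trend). Its SE with the trend was then 0.21, against 0.12 as deposited. The second Cdkn1a probe set, 1421679_a_at, read 90 and 129 in activin cells, 94 and 78 in SB431542 cells and 132 and 109 in control cells. Its SB431542 values also lay below both control values, by −0.49 on the log2 scale, which did not pass either setting (adjusted p = 0.437 and 0.285). With both probe sets averaged, the difference between SB431542 and control was −0.69 (adjusted p = 0.022 with the trend), and the one between activin and SB431542, 0.54, no longer passed (adjusted p = 0.0835 with the trend).

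Cdkn1b, which holds Cdk2 complexes inactive in resting cells, had intensities of 251 and 303 in activin cells, 280 and 298 in SB431542 cells and 275 and 233 in control cells. The groups lay within 0.19 of one another on the log2 scale, with 95% intervals from −0.11 to 0.50 for SB431542 against control and from −0.18 to 0.43 for activin against control. Its second probe set, 1419497_at, ranged from 21 to 31 and did not rise above the Bacillus probe sets. Cdkn1c, an imprinted gene expressed from the maternal allele, had 422 and 410 in activin cells, 520 and 508 in SB431542 cells and 525 and 434 in control cells. Both activin values were below the other 4, and SB431542 and control overlapped. The log2 difference of activin from SB431542, −0.31, did not pass (adjusted p = 0.605 by default and 0.293 with the trend).

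**Figure D1:**
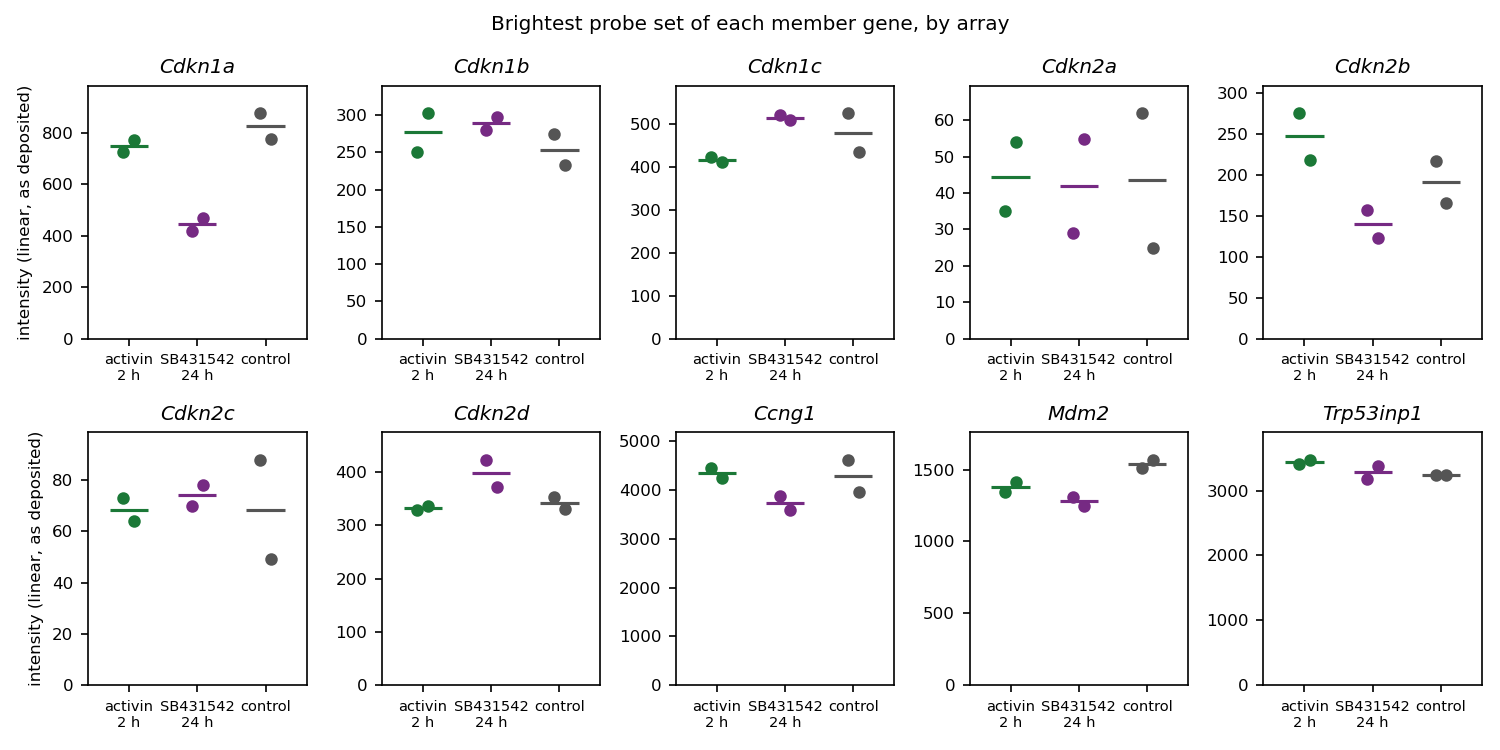
Deposited intensity (linear, vertical axis from 0, a scale of its own in each panel) of the brightest probe set of each of the 10 genes on every array, by group. Points are arrays and bars are means of 2 arrays. Cdkn1a had 419 and 470 in SB431542 cells, below all other arrays, and Cdkn2b had 275 and 218 in activin cells and 157 and 122 in SB431542 cells, with control between.

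Of the INK4 genes, Cdkn2b was ordered activin, control, SB431542 from high to low. Cdkn2b (1449152_at), the INK4 inhibitor known for its response to TGF-beta, had intensities of 275 and 218 in activin cells, 157 and 122 in SB431542 cells and 217 and 165 in control cells. The 3 groups did not overlap, although activin replicate 2 at 218 and control replicate 1 at 217 nearly met. How many of all genes keep their groups apart in this order was not counted. The log2 means were 7.94 ± 0.24 for activin, 7.11 ± 0.26 for SB431542 and 7.56 ± 0.28 for control (SD, n = 2 each). Neither pair of neighbours in this order passed the test adjusted over all probe sets. Activin minus control was 0.37 (adjusted p = 0.849 by default, 0.699 with the trend, 95% interval 0.00 to 0.74) and SB431542 minus control was −0.45 (adjusted p = 0.457 and 0.177, 95% interval −0.82 to −0.08). The ends of the order differed by 0.82 (SE 0.22), a 1.77-fold higher signal with activin than with SB431542, which passed with the trend (adjusted p = 0.00662, 95% interval 0.45 to 1.19) and not by default (adjusted p = 0.420). That call rests on single arrays: it was 0.66 (adjusted p = 0.192) without activin replicate 1 and 0.64 (adjusted p = 0.214) without SB431542 replicate 2, both with the trend.

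The other INK4 genes did not pass in any comparison. Cdkn2d had 329 and 336 in activin cells, 424 and 372 in SB431542 cells and 353 and 331 in control cells. SB431542 values were the highest, by 0.22 over control (adjusted p = 0.531 by default, 0.454 with the trend) on the log2 scale, and activin minus SB431542 was −0.26. Cdkn2c had 73 and 64 in activin cells, 70 and 78 in SB431542 cells and 88 and 49 in control cells, so the control arrays spanned all others. Cdkn2a gives rise to an INK4 protein and, from another reading frame, to Arf, which blocks Mdm2. Its probe set read 35 and 54 in activin cells, 29 and 55 in SB431542 cells and 62 and 25 in control cells. These values reach the Bacillus range, replicates differed more than groups (SE 0.53), and a difference could not be detected at this precision.

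Of the p53 targets among the members, Cdkn1a is described above. Ccng1, Mdm2 and Trp53inp1, each with at least 1 probe set above the Bacillus range on all arrays, did not pass either setting in any comparison. Ccng1, cyclin G1, which brings a phosphatase to Mdm2, had intensities of 4460 and 4253 in activin cells, 3870 and 3595 in SB431542 cells and 4627 and 3955 in control cells with its brightest probe set, 1450016_at. Both SB431542 values lay below the other 4, by −0.20 on the log2 scale against control (adjusted p = 0.586 by default, 0.170 with the trend). Without control replicate 2 the difference was −0.31 and passed with the trend (adjusted p = 0.0226). The probe set 1420827_a_at gave 2732 and 2386 in activin cells, 2620 and 2632 in SB431542 cells and 2551 and 2517 in control cells, a difference of 0.05 in the other direction. The third, 1450017_at, gave 1568 and 1922 in activin cells, 1601 and 1631 in SB431542 cells and 1897 and 1693 in control cells, or −0.15. The Ccng1 probe sets thus disagreed in sign for SB431542.

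Mdm2, the ubiquitin ligase that removes p53 and is itself its target, had intensities of 1344 and 1414 in activin cells, 1311 and 1245 in SB431542 cells and 1511 and 1570 in control cells (1423605_a_at). Both treated groups lay below both control arrays, by −0.16 for activin (adjusted p = 0.875 by default, 0.790 with the trend) and −0.27 for SB431542 (adjusted p = 0.418 and 0.0984). The probe set 1427718_a_at, at 1107 and 1062 in activin cells, 1035 and 841 in SB431542 cells and 1150 and 1121 in control cells, gave −0.07 and −0.28 for the same differences. After a repeated quantile normalization, the SB431542 difference of the brightest probe set was −0.32 and passed with the trend (adjusted p = 0.0334). The other, 1457929_at, stayed between 12 and 25, within the Bacillus range. Trp53inp1, a p53-induced protein that promotes arrest and cell death, had 3415 and 3478 in activin cells, 3184 and 3374 in SB431542 cells and 3246 and 3245 in control cells. Activin values were above all others by at most 0.09 in mean log2 difference. Its other probe set, 1416927_at, read 323 and 303 in activin cells, 249 and 235 in SB431542 cells and 224 and 267 in control cells, and its differences of 0.36 from control (adjusted p = 0.805 and 0.575) and 0.37 from SB431542 (adjusted p = 0.537 and 0.275) did not pass.

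Counted over probe sets, 0 of 17 members passed by default in SB431542 against control, where 0.0155% of all probe sets passed. An unadjusted p under 0.05 was found for 1 of 17, against 13% of all. With the trend 1 of 17 was called, the Cdkn1a probe set at a lower level (5.88%), where 4.98% of all probe sets were called and 1.6% were called lower, so the members' share was near the background. In activin against control 0 of 17 passed with either setting, against 0% of all probe sets by default and 0.215% with the trend, and 1 of 17 had an unadjusted p under 0.05, against 6.21%. In activin against SB431542 0 of 17 passed by default, against 0.02%, and 3 of 17 had an unadjusted p under 0.05, against 9.04%. With the trend 2 of 17 (11.8%) were higher, against 0.802% of all probe sets higher and 2.27% in either direction. Members were chosen with earlier results of these data known, so their shares are descriptions and not a test.

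Both SB431542 arrays were below both control arrays in 7 of 17 member probe sets (41.2%), against 22.1% of all, and above them in 3 of 17, against 20.6%. Both activin arrays were above both control arrays in 3 of 17, against 14.7%, and below them in 4 of 17, against 14.5%. Both activin arrays were above both SB431542 arrays in 7 of 17, against 18.7%, and below them in 3 of 17, against 18.2%. The median log2 difference over the 10 genes was 0.02 for SB431542 against control, 0.04 for activin against control and 0.09 for activin against SB431542. Over all brightest probe sets it was −0.00, −0.01 and 0.00 in the same order, and the members went in both directions in each comparison. The activin and SB431542 comparisons share the control arrays.

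**Figure D2:**
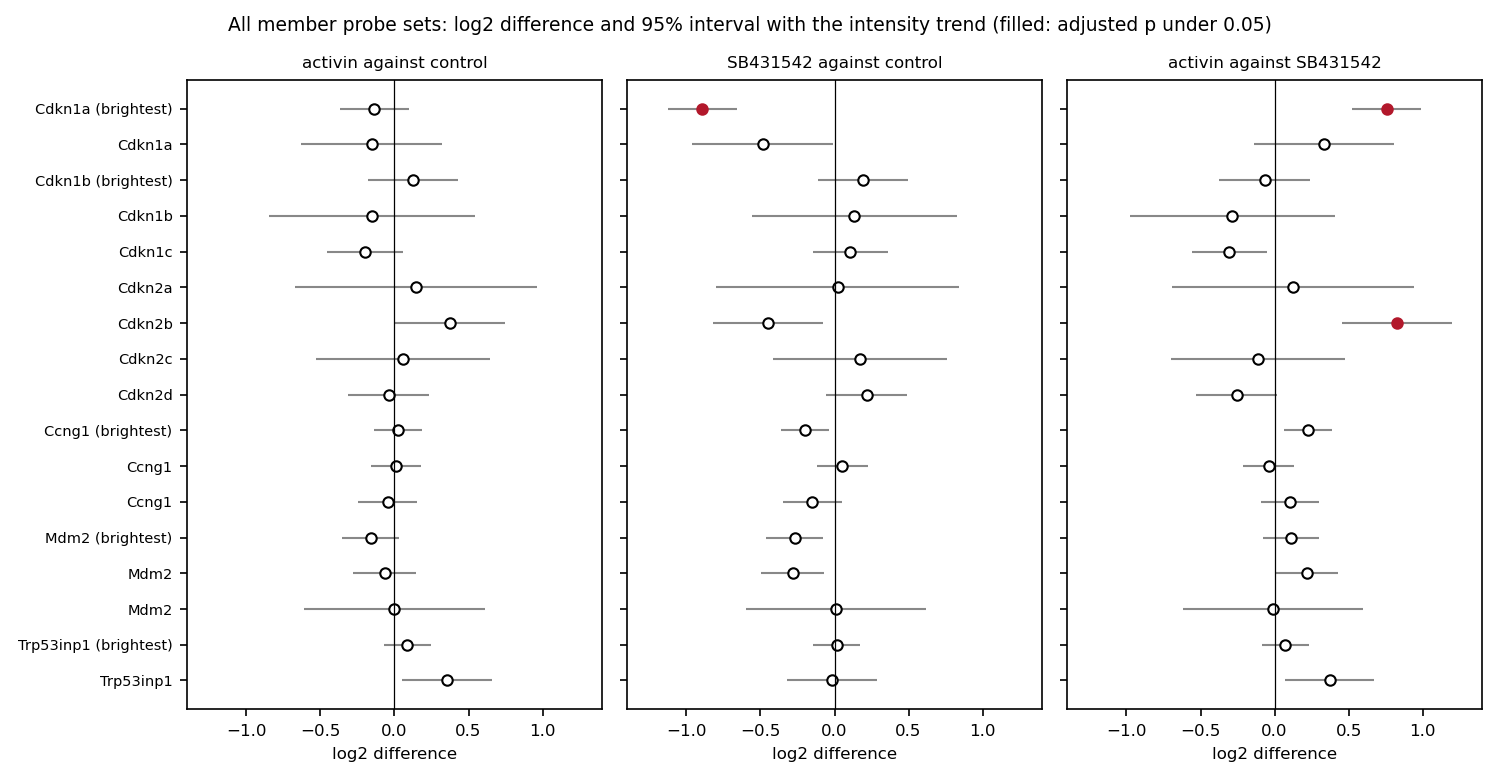
Log2 difference (horizontal axis) with its 95% interval from limma with the intensity trend for all 17 member probe sets, in 3 panels, one for each comparison named above it. Filled points passed an adjusted p of 0.05: Cdkn1a at −0.89 for SB431542 against control, and Cdkn1a at 0.76 and Cdkn2b at 0.82 for activin against SB431542.

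Other p53 targets and regulators were read as a list, of which 33 of 36 entries matched a named probe set. Trp53, the gene of p53 itself, Bax and Gdf15 did not, and were not read. This list and those below were chosen with earlier results of these data known, so their shares are descriptions. By default 0 of 33 passed in any of the 3 comparisons, where 0.0275% (SB431542 against control), 0% (activin against control) and 0.033% (activin against SB431542) of all brightest probe sets passed. An unadjusted p under 0.05 was found in 11, 0 and 5 of 33, against 13.7%, 5.24% and 10.3% of all brightest probe sets, in the same order of comparisons. With the trend 6 of 33 (18.2%) were lower in SB431542 than in control and 0 were higher, against 2.23% lower and 4.25% higher among all brightest probe sets. Without control replicate 1 this split was 3 lower and 2 higher. Among brightest probe sets with a mean above 8 on the log2 scale, where all 6 lie, 6 of 22 list genes (27.3%) were lower, against 4.02% of all. The list's median log2 difference was −0.15 with 21 of 33 below 0, and the median over all brightest probe sets was −0.00. The 6 genes were Pmaip1, Sfn, Ei24, Plk2, Zmat3 and Aen.

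Pmaip1 encodes Noxa, a BH3-only protein that promotes apoptosis. It had 588 and 510 in activin cells, 248 and 278 in SB431542 cells and 462 and 428 in control cells. The 3 groups did not overlap, in the order that Cdkn2b also showed, and the share of all genes in this order was not counted. SB431542 was lower than control by a log2 difference of −0.76 (adjusted p = 0.203 by default, 0.000148 with the trend), and activin was higher than SB431542 by 1.06 (adjusted p = 0.185 and 6.21e-07). Sfn, 14-3-3 sigma, which holds cells in G2 after damage in human cells, had 877 and 714 in activin cells, 481 and 419 in SB431542 cells and 838 and 670 in control cells. SB431542 was lower than control by a difference of −0.74 (adjusted p = 0.255 and 0.000143), and activin was higher than SB431542 by 0.82 (adjusted p = 0.347 and 5.55e-05). Both genes passed with the trend in these comparisons when any 1 array was left out.

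The remaining differences were smaller. Plk2, a polo-like kinase, had 1036 and 1151 in activin cells, 879 and 883 in SB431542 cells and 1311 and 1121 in control cells, a difference of −0.46 between SB431542 and control (adjusted p = 0.00427 with the trend). Ei24, a membrane protein of the endoplasmic reticulum, had 1598 and 1672 in activin cells, 1287 and 1303 in SB431542 cells and 1789 and 1670 in control cells, or −0.42 (adjusted p = 0.00338 with the trend). Zmat3, a zinc-finger RNA-binding protein, gave −0.34 (adjusted p = 0.0261 with the trend). Aen, an apoptosis-enhancing nuclease, gave −0.31 (adjusted p = 0.0342 with the trend). These 4 calls depended on single arrays: 2 of the 33 genes were called without SB431542 replicate 1, which ended all 4 calls, Plk2, Zmat3 and Aen did not pass without control replicate 1 (adjusted p = 0.0695, 0.0876 and 0.127), and Zmat3 and Aen did not pass without SB431542 replicate 2 (adjusted p = 0.0987 and 0.222). With each array shifted to 1 median none of the 4 passed with the trend (adjusted p = 0.338 to 0.682), with differences of −0.44 for Ei24, −0.49 for Plk2, −0.37 for Zmat3 and −0.33 for Aen and an SE of 0.21 to 0.22. In activin against SB431542 3 of 33 were higher with the trend (Pmaip1, Sfn and Ei24 at 0.34, adjusted p = 0.0399), against 1.26% of all brightest probe sets. The Ei24 call ended when any 1 activin or SB431542 array was left out (adjusted p = 0.108 to 0.385). In activin against control 0 of 33 passed with the trend, against 0.148%. Mdm4, the Mdm2 relative that restrains p53, had 460 and 496 in activin cells, 607 and 535 in SB431542 cells and 454 and 419 in control cells. Its SB431542 values were above all others, by 0.39 over control, which did not pass (adjusted p = 0.061 with the trend).

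**Figure D3:**
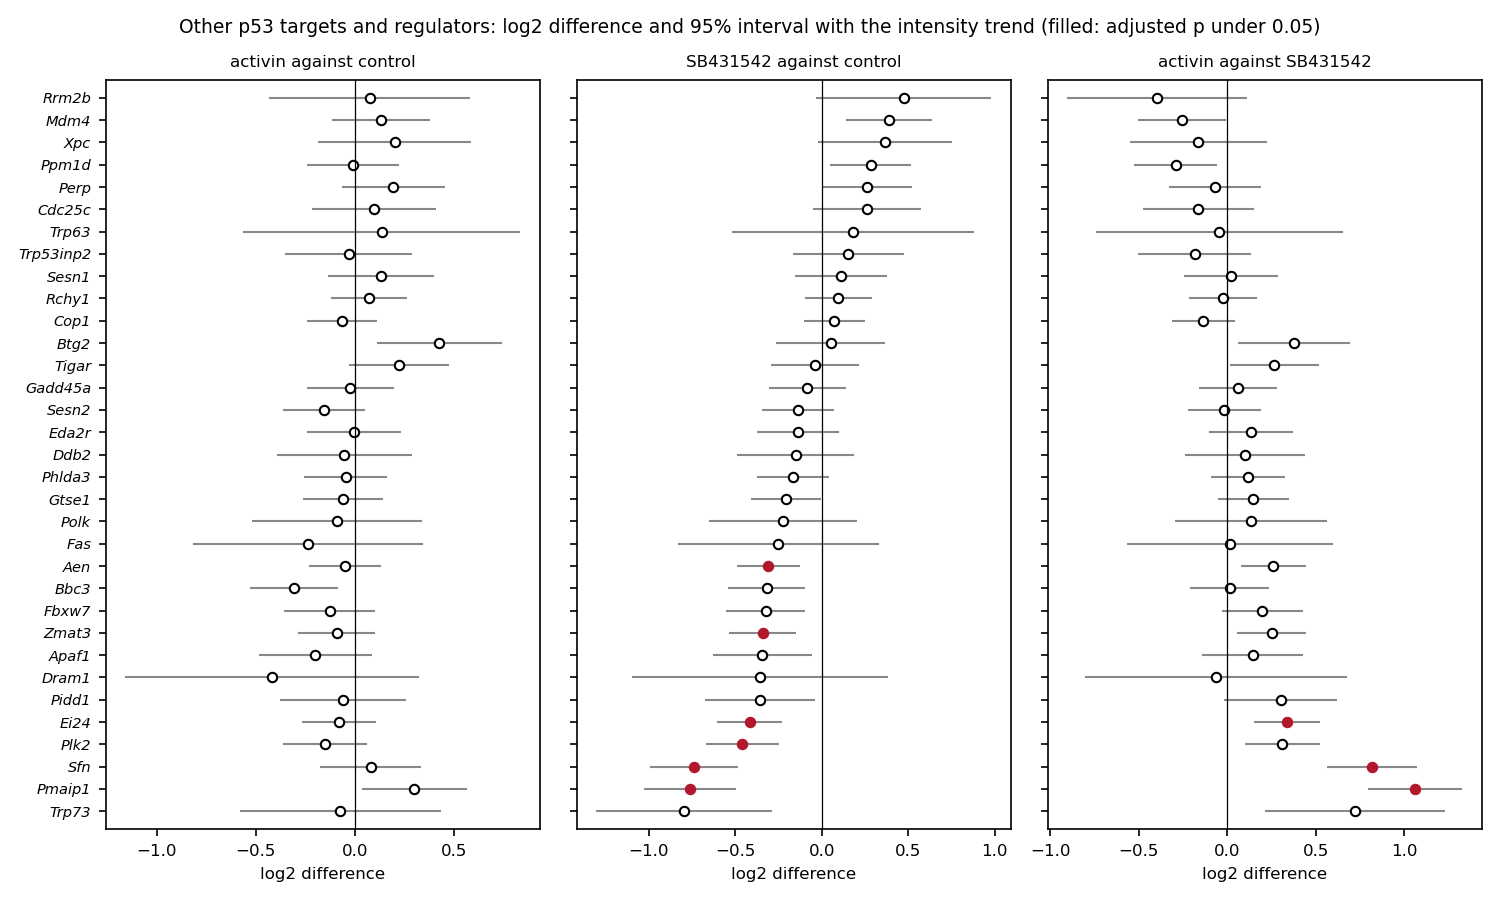
Log2 difference (horizontal axis) with its 95% interval from limma with the intensity trend for the brightest probe set of 33 other p53 targets and regulators, in 3 panels for the 3 comparisons, ordered by the SB431542 against control difference. Filled points passed an adjusted p of 0.05, and in SB431542 against control all 6 of these, from Aen at −0.31 to Pmaip1 at −0.76, are below 0.

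The kinases and cyclins that the inhibitors act on, with the retinoblastoma and E2F genes, matched 29 of 30 entries. By default 0 of 29 passed in the 3 comparisons, and 4 of 29 (SB431542 against control), 0 (activin against control) and 3 (activin against SB431542) had an unadjusted p under 0.05, or 13.8%, 0% and 10.3%. Of all brightest probe sets 13.7%, 5.24% and 10.3% did, so the shares in both comparisons with SB431542 were at the background. Of all brightest probe sets 2.23% were lower and 4.25% higher with the trend in SB431542 than in control, and 4.02% and 9.06% of those with a mean above log2 8. Of the list 3 of 29 were lower (10.3%) and 1 was higher (3.45%), and the list's median difference was 0.04. Leaving out 1 array moved this count of 4 to between 1 and 6, with 1 called without SB431542 replicate 1, 2 without control replicate 1 and 6 without either activin array. Cdk6, the INK4-sensitive partner of D-type cyclins, had 402 and 433 in activin cells, 267 and 228 in SB431542 cells and 425 and 386 in control cells. SB431542 was lower than control by −0.72 (adjusted p = 0.215 by default, 0.000623 with the trend), and the call held with the trend without any 1 array. Ccnd1, cyclin D1, had 1358 and 1493 in activin cells, 1105 and 1192 in SB431542 cells and 1750 and 1320 in control cells, a difference of −0.41 (adjusted p = 0.0206 with the trend) that was −0.20 (adjusted p = 0.375) without control replicate 1 and −0.35 (adjusted p = 0.204) without SB431542 replicate 1. Ccne1, cyclin E1, gave −0.30 (adjusted p = 0.0267 with the trend), which did not pass without control replicate 1, SB431542 replicate 1 or SB431542 replicate 2 (adjusted p = 0.0885, 0.333 and 0.152). E2f5, a repressive E2F factor, was higher by 0.41 (adjusted p = 0.0145 with the trend), and 0.34 (adjusted p = 0.336) without SB431542 replicate 1. With the trend, 1.26% of all brightest probe sets were higher and 2.12% lower in activin than in SB431542. In this comparison, also with the trend, Cdk6 was higher with activin by 0.76 (adjusted p = 0.000518). Ccnd3, cyclin D3, was lower by −0.36 (adjusted p = 0.0407), which did not pass when any 1 activin or SB431542 array was left out (adjusted p = 0.0645 to 0.701). With each array shifted to 1 median, Ccnd1, Ccne1 and E2f5 did not pass in SB431542 against control (−0.43, −0.33 and 0.38, adjusted p = 0.462, 0.704 and 0.569 with the trend), nor Cdk6 in activin against SB431542 (0.72, adjusted p = 0.0673). The SE with the trend was then 0.21 to 0.22 for these genes, against 0.08 to 0.14 as deposited. In activin against control 0 of 29 passed with the trend, against 0.148% of all brightest probe sets.

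Known regulators of the inhibitor genes were all measured, 21 of 21, and 0 passed by default in the 3 comparisons, while 9 (SB431542 against control), 2 (activin against control) and 8 (activin against SB431542) had an unadjusted p under 0.05, or 42.9%, 9.52% and 38.1%, against 13.7%, 5.24% and 10.3% of all brightest probe sets. With the trend 5 of 21 were higher in SB431542 than in control (23.8%) and 1 was lower (4.76%). Of all brightest probe sets 4.25% were higher and 2.23% lower, and 9.06% and 4.02% of those with a mean above log2 8. The list was chosen with earlier results of these data known, so these shares are descriptions and not a test. Id2, a BMP target whose protein blocks helix-loop-helix transcription factors, had 1126 and 986 in activin cells, 3502 and 3551 in SB431542 cells and 1153 and 1172 in control cells, a difference of 1.60 between SB431542 and control (adjusted p = 0.0978 by default, 2.76e-15 with the trend). Its relative Id3 had 1014 and 956 in activin cells, 2892 and 2755 in SB431542 cells and 2025 and 2031 in control cells. In activin against control Id3 passed with the trend, at −1.04 (adjusted p = 0.789 by default, 2.36e-09 with the trend), and SB431542 exceeded control by 0.48 (adjusted p = 0.00046 with the trend). Id1, of the same family, had 1768 and 2073 in activin cells, 5308 and 5483 in SB431542 cells and 4298 and 2951 in control cells. Its difference of −0.90 between activin and control did not pass with the trend (adjusted p = 0.194). With the trend it passed after repeated quantile normalization (−0.90, adjusted p = 0.0291) and with each array shifted to 1 median (−0.96, adjusted p = 0.0261). Leaving out each array in turn gave differences from −1.17 to −0.62, and whether these passed depended on the array left out.

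Klf4, a pluripotency factor that activates CDKN1A in human cells, had 1727 and 1887 in activin cells, 2623 and 2501 in SB431542 cells and 1818 and 1795 in control cells. Its SB431542 values lay above all others, by 0.50 over control (adjusted p = 0.000158 with the trend). Cdkn1a was lower in the same cells, and no link of these regulators to the inhibitor genes was tested. Ezh2, the Polycomb methyltransferase that represses the Cdkn2a and Cdkn2b locus, was higher by 0.37 (adjusted p = 0.0032 with the trend) and 0.34 (adjusted p = 0.134) without SB431542 replicate 1. Sp1 was higher by 0.37 (adjusted p = 0.00402 with the trend), and did not pass without SB431542 replicate 1 (adjusted p = 0.0835) or control replicate 1 (adjusted p = 0.0589). Myc, known to repress Cdkn1a and Cdkn2b, had 799 and 714 in activin cells, 403 and 413 in SB431542 cells and 639 and 584 in control cells. The groups did not overlap and stood in the order of Cdkn2b, activin, control and SB431542. The share of all genes in this order was not counted. SB431542 was lower than control by −0.58 (adjusted p = 0.236 by default, 0.00117 with the trend), and activin was higher than SB431542 by 0.89 (adjusted p = 0.205 and 2.5e-06). In that last comparison 2.12% of all brightest probe sets were lower with the trend, and 4.33% of those with a mean above log2 8. Lower in the list were 5 other genes (23.8%), namely Id1, Id2, Id3, Klf4 and Ezh2. Of these, Id1 did not pass without activin replicate 1 (adjusted p = 0.0868), and Ezh2 did not pass when any 1 activin or SB431542 array was left out (adjusted p = 0.0695 to 0.345). With each array shifted to 1 median, Klf4, Id3, Myc, Ezh2 and Sp1 did not pass in SB431542 against control (0.48, 0.45, −0.61, 0.34 and 0.34, adjusted p = 0.135 to 0.671 with the trend), nor Klf4 and Ezh2 in activin against SB431542 (−0.54 and −0.38, adjusted p = 0.366 and 0.812). The SE with the trend was then 0.21 to 0.22 for these genes, against 0.08 to 0.12 as deposited.

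Genes with the most similar pattern over the 6 arrays were found by the root mean square difference of mean-centred log2 values, among 2045 genes with a mean above 7 and a range of at least 0.5 on the log2 scale. Nearest to Cdkn1a were Slc27a2 at 0.055, Pgap4 at 0.056 and Pim1 at 0.068. Slc27a2, an acyl-CoA synthetase of very long chain fatty acids, had 658 and 676 in activin cells, 357 and 395 in SB431542 cells and 740 and 721 in control cells. Pim1, a serine/threonine kinase, had 736 and 719 in activin cells, 403 and 502 in SB431542 cells and 871 and 730 in control cells. As with Cdkn1a, the SB431542 arrays were the low ones and the other 4 lay close together. Nearest to Cdkn2b were Pklr at 0.116, Lgals9 at 0.129 and Rps6kl1 at 0.136. Pklr, a pyruvate kinase, had 201 and 185 in activin cells, 149 and 105 in SB431542 cells and 179 and 148 in control cells. These were chosen for their likeness, so their differences are descriptions, and all values come from the same 6 arrays and their scaling.

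**Figure D4:**
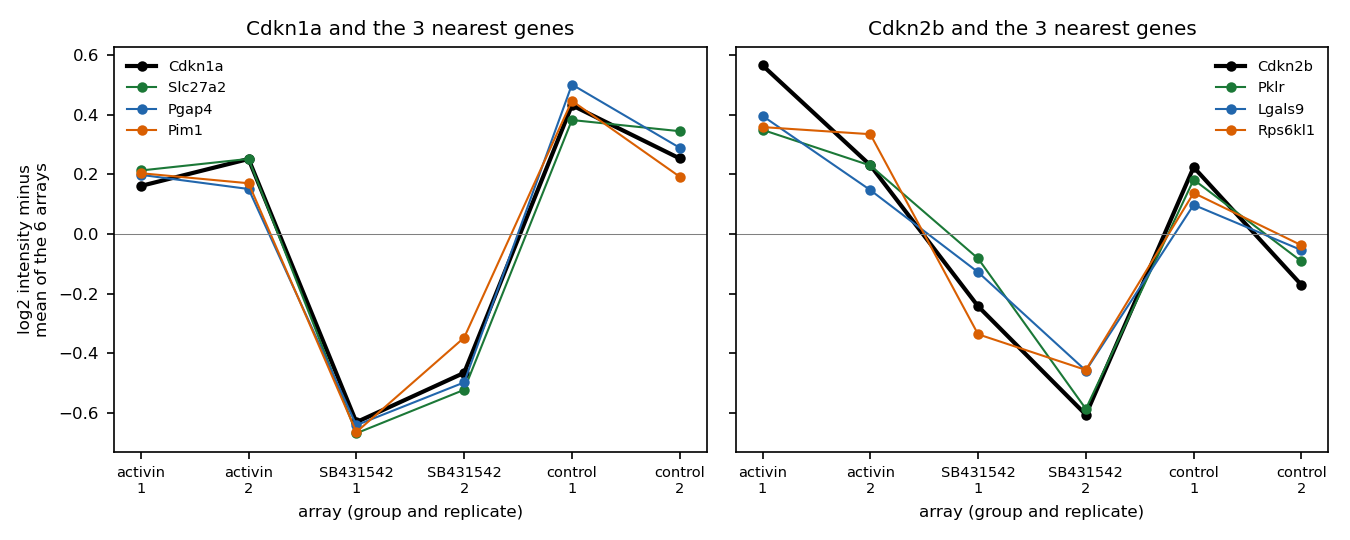
Log2 intensity minus the mean of the 6 arrays (vertical axis) on each array (horizontal axis, group and replicate) for Cdkn1a with its 3 nearest genes, left, and Cdkn2b with its 3 nearest genes, right. Lines join arrays of one gene as a guide to the eye; both SB431542 arrays lie below the other 4 for Cdkn1a and for Cdkn2b, and both activin arrays lie above the other 4 for Cdkn2b. Pklr, in the right panel, had 149 on an SB431542 array and 148 on a control array.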

How the data were processed

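Probe set intensities on a linear scale, whole numbers from 6 to 26405, were deposited by the authors, and the submitters' processing notes name RMA without giving a version. Its software is not given in the sources used here. The design text names a smaller version of the array than the 45101 probe sets of the table. Intensities were converted to log2 with no further normalization. The 64 control probe sets were left out, leaving 45037, of which 34945 have 1 gene symbol in the platform annotation, 932 several and 9160 none.

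Using limma 3.58.1 in R 4.3.3, all 6 arrays were fitted with a mean for each group and eBayes, by default and, as an alternative printed beside it, with an intensity trend and robust estimation. There were 3 residual degrees of freedom, to which the prior added 2.51 by default and a median of 34.3 with the trend. Benjamini-Hochberg adjustment ran over all probe sets, and the threshold was 0.05. The fit was tested on simulated data. Intervals are 95% and cover 1 comparison each.

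Groups come from the titles. The title of 1 array spells the inhibitor SB432542, and SB431542 is used throughout. Whether arrays of one group came from separate cultures is not stated, so p-values measure only array-to-array spread, which may be technical, and the number of arrays limits the precision.

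Members and lists were chosen with earlier results of these data known. All member probe sets were named. Of each list the genes past the threshold with either setting were named, at most 6 per comparison by smallest p with the trend, plus Mdm4, Myc, Lefty1 and Lefty2. For Cdkn1a and members past the threshold with the trend, 3 nearest genes were named. Entries without a named probe set were not analysed here. Alternatives tried were repeated quantile normalization, columns shifted to 1 median, leaving out the dimmest 40% of probe sets, adding 16 before log2, the compared arrays alone, a replicate block, leaving out each array, and the mean of a gene's probe sets.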

Additional observations from a re-analysis of the deposited data

How the results depend on the processing

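By default limma passed 7 probe sets in SB431542 against control, 0 in activin against control and 9 in activin against SB431542, and with the intensity trend 2242, 97 and 1024. In the order SB431542 against control and activin against SB431542, the default counts were 40 and 49 after repeated quantile normalization, 791 and 412 with columns shifted to 1 median, 21 and 30 without the dimmest 40%, 41 and 64 after adding 16, and 0 and 0 with the 4 compared arrays alone. Activin against control gave 78 with columns shifted. Leaving out any 1 array gave 0 in both of these comparisons with SB431542 by default. With the trend, the shift gave 873, 37 and 500, and leaving out 1 array gave 947 to 2560, 21 to 201 and 402 to 1493, for SB431542 against control, activin against control and activin against SB431542. Without SB431542 replicate 2 the trend counts with SB431542 were 1217 against control and 517 for activin against SB431542, activin against SB431542 had 564 without activin replicate 1, and activin against control had 158 without control replicate 1. The share of calls that were higher, 67.8% in SB431542 against control with the trend, was 54.8% after repeated quantile normalization. In activin against SB431542 it was 35.3% and 48%, and in activin against control it was 90.7%, and 62.2% with the shift. Same-numbered arrays deviated together with r of −0.141 (activin and control), 0.0224 (SB431542 and control) and −0.0929 (activin and SB431542), so the numbers were not taken to pair them. With the replicate block the default counts were 0 in SB431542 against control and 1 in activin against SB431542, and activin against control had 157 with the trend. With the trend on the 4 activin and control arrays alone, activin against control had 125 with no block, 20 with the replicate block and 0 with a crossed block, all 3 chosen after seeing the data.

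Members past the threshold numbered 0 by default in each comparison, except 1 in SB431542 against control with columns shifted (Cdkn1a, adjusted p = 0.0404). With the trend there were 1 in SB431542 against control and 2 in activin against SB431542. In the first, repeated quantile normalization gave 2 and leaving out 1 array 1 to 2. In the second, the shift gave 1, Cdkn2b (0.78, adjusted p = 0.0388), Cdkn1a being lost (0.72, adjusted p = 0.0673), and leaving out 1 array 1 to 2. Without either activin replicate 1 or SB431542 replicate 2 the second count was 1, Cdkn2b being lost. Where genes, each the mean of its probe sets, were tested in place of probe sets, Cdkn2b, which has 1 probe set, kept its difference of 0.82 and did not pass (adjusted p = 0.0537). The p53 list counts under alternatives were added after seeing the data. With the trend the list had 6 in SB431542 against control and 3 in activin against SB431542. These were 3 and 2 with columns shifted and 9 and 5 after repeated quantile normalization, and leaving out 1 array gave 2 to 7 and 2 to 3. Without control replicate 1, 2 of 5 in SB431542 against control were higher. Activin against control had 0 to 1. By default the shift gave 1 in activin against SB431542. The cause of these changes was not tested.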
